A study of Mus musculus with 2 samples.

Results

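Nnmt, Hal, Npr3, Slc7a10, Tmem45b and Serpina1b are 6 genes outside the usual adipocyte lists that were strongly lower in epididymal white fat of mice without PPARβ/δ, a fatty acid-sensing nuclear receptor encoded by Ppard. They were chosen from that same difference, so their lower values are a description and no test supports them. The 6 genes were found by symbol in the annotation of the array among 12394 genes, and 9 of the 22690 probe sets name one of them alone. All 6 reached the intensity floor of 32 (log2 of 5) that a probe set had to meet on at least 1 array, as did 6533 genes in all.

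Epididymal fat pads came from male mice on standard chow, and RNA from 5 animals of each genotype was combined into 1 pool and hybridised to an Affymetrix mouse array. The wild-type pool came from animals aged 12 to 16 weeks, labelled as strain 129S1/SvJae. The knockout pool came from animals aged 12 weeks, lacking PPARβ/δ on a mixed Sv129/C57BL/6 background. The design text calls the controls littermates, so the sources differ on their strain, and a difference of strain cannot be told apart from one of genotype. How the allele was made, and whether it is lost in all cells, are not given in the sources used here. Each group is 1 array of pooled animals, which leaves no spread between replicates, no p-value and no error for any difference. The number of arrays limits the precision. A yardstick for technical spread alone is the disagreement between probe sets of 1 gene: over 2137 genes with several probe sets above the floor, the median SD of their log2 differences was 0.25, and 90% of genes had an SD below 0.75.

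The single probe set of Ppard was below the floor in both pools, with intensities of 6.58 (wild type) and 6.27 (knockout), and gives no check of the labels. Adipocyte markers were clearly present, since 15 of 17 with a probe set were kept, among them the adipokine Adipoq at 10259 and 8030. Of these 15, 14 were lower in the knockout pool, beside 55.5% of all kept genes, and 7 were lower by 2-fold or more, beside 9.14%. The median log2 difference of these markers was -0.78. Their summed intensity was 92602 in the wild-type pool against 65214 in the knockout pool. For testis germ cells, 19 of 19 kept markers had the higher value in the knockout pool, with a median log2 difference of 4.67. Their sum was 3860 in the wild-type pool against 68567 in the knockout pool, and 7 of them did not reach the floor on the wild-type array. Epididymis markers summed to 50912 and 60370, with 8 of 9 higher. The part of these other tissues in the lower values of the 6 genes was not tested. In whole tissue, fewer cells of a type and less RNA per cell cannot be told apart.

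The 6 genes act at different points of small-molecule handling, peptide signalling and secretion. Nnmt methylates nicotinamide with the methyl group of S-adenosylmethionine and is abundant in fat and liver. Hal, histidine ammonia-lyase, opens histidine breakdown by turning it into urocanate, and is best known from liver and skin. Npr3 is the clearance receptor that removes natriuretic peptides, which stimulate lipolysis in human fat cells through a different, cyclase-bearing receptor. Slc7a10 (Asc-1) carries small neutral amino acids such as serine, glycine and alanine across the plasma membrane and is known as a surface marker of white adipocytes. Tmem45b is a multi-pass membrane protein. Serpina1b is one of the mouse α1-antitrypsins, secreted inhibitors of neutrophil elastase made mostly by liver. Npr3 is thus the receptor of the set, and Nnmt, Hal and Slc7a10 handle metabolites, while Tmem45b and Serpina1b are neither.

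Promoter windows (250 bases before to 50 after a transcript start) were available from RefSeq, build GRCm38.p6, for 4 of the 6 genes: Hal, Npr3, Slc7a10 and Serpina1b. They are shown because the 4 genes were lower together, and so that the letters upstream of each can be compared. Six-letter and longer motifs were searched on both strands: TATAAA (the TATA box), AGGTCA (the half-site of many nuclear receptors), the direct repeat of AGGTCA spaced by 1 base that PPAR binds with RXR (DR1), TTGCNNAA (a C/EBP-type site), AGAACA (the half-site of steroid receptors) and CACGTG (an E-box). AGGTCA is part of DR1, so those matches would overlap. Capitals mark the matches.
Hal, chr10:93488518-93488817, plus strand: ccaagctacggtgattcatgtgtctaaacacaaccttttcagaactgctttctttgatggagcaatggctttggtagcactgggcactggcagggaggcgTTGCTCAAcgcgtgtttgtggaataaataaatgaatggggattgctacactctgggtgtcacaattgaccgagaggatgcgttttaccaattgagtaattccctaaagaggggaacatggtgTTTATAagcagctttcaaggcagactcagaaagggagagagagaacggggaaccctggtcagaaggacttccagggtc
Npr3, chr15:11907322-11907621, minus strand: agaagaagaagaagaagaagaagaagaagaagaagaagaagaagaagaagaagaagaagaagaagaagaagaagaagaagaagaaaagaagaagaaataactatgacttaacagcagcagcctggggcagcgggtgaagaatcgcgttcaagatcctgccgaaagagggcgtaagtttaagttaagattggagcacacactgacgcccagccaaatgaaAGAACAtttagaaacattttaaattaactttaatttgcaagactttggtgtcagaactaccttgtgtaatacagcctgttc
Slc7a10, chr7:35186135-35186434, plus strand: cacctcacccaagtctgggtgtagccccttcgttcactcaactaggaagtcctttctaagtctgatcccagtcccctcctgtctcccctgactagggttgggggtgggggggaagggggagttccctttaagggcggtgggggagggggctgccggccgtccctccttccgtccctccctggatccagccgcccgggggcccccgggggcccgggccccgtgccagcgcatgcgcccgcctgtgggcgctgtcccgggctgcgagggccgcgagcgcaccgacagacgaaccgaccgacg
Serpina1b, chr12:103738140-103738439, minus strand: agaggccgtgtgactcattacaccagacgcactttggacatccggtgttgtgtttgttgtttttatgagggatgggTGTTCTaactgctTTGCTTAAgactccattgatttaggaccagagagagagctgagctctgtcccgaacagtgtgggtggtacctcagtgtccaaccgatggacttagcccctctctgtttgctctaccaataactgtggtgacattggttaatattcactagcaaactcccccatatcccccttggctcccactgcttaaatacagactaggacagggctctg

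The Hal window held a TATAAA match on the opposite strand, 28 to 23 bases before the start, and a TTGCNNAA match 150 to 143 bases before it. TATAAA was found in 13.6% of the 32851 windows and TTGCNNAA in 10.8%. Npr3 held AGAACA 31 to 26 bases before the start, and Serpina1b held it on the opposite strand 174 to 169 bases before and a TTGCNNAA match 161 to 154 bases before. AGAACA was found in 19.0% of all windows. The Slc7a10 window held none of the motifs. It was also the richest in G and C of the 4, at 70.7%, against 47.7% for Hal, 39.0% for Npr3 and 48.7% for Serpina1b. No window of the 4 held the half-site AGGTCA, the E-box CACGTG or DR1, which occur in 16.3%, 7.15% and 0.0396% of windows. A match is a run of letters in this window and not evidence that a factor binds there.

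All 9 probe sets of the 6 genes were lower in the knockout pool. All 6 genes were at least 2-fold lower, beside 9.14% of the 6533 kept genes, and all 6 at least 4-fold lower, beside 0.888%; the genes were picked for this difference and nothing is read from those counts. Taking dim values at the floor itself, 6 were still at least 2-fold lower (7.99% of all genes) and 5 at least 4-fold lower (0.811%). Across the 6, the median log2 difference was -2.67 and the range ran from -4.90 to -2.03, while the median of all kept genes was -0.08. The wild-type value was above the floor for all 9 probe sets, and the knockout value was below it for 4 of them, in Hal, Serpina1b and the dimmest probe set of Npr3.

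**Figure D1:**
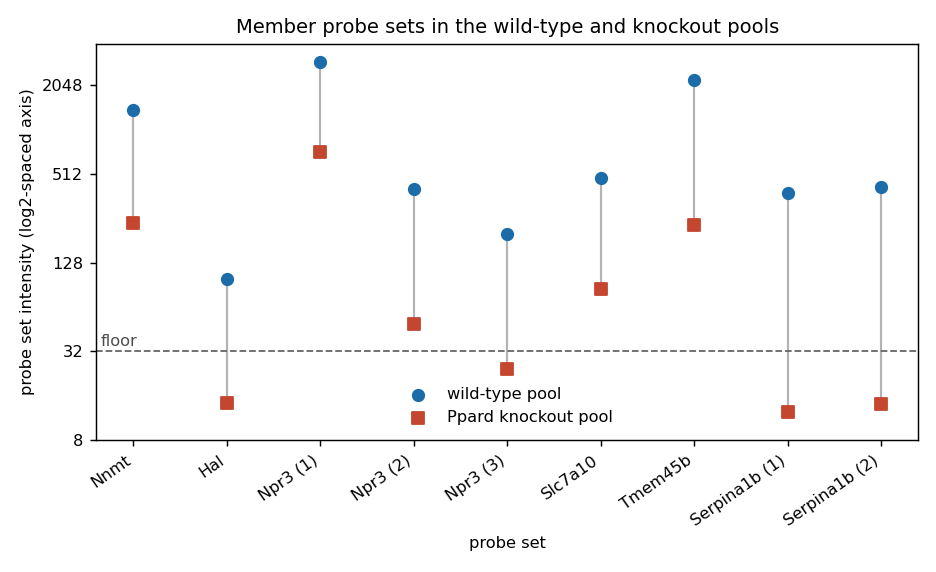
Intensity (log2-spaced axis) of each of the 9 probe sets of the 6 genes in the wild-type pool (circles) and the Ppard knockout pool (squares), with 1 array per pool; the dashed line is the floor of 32. Every square lies below its circle, and 4 squares lie under the floor.

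Nnmt was at an intensity of 1389 in the wild-type pool against 238 in the knockout pool. The knockout value was 17.2% of the wild-type value, a 5.83-fold difference (log2 -2.54) from its single probe set. Among the genes around nicotinamide and NAD, 10 others were kept, of which 6 were lower, 2 at least 2-fold, and 1 was at least 2-fold higher, with a median of -0.42. Over all kept genes 55.5% were lower and 13.7% at least 2-fold higher. Aox1, an aldehyde oxidase that converts the methylated nicotinamide made by Nnmt, was at 175 and 79.0, 2.21-fold lower. Nnt, the mitochondrial transhydrogenase, was at 497 and 244, 2.04-fold lower. Nampt, the rate-limiting enzyme of NAD salvage from nicotinamide, was at 434 and 217, a difference that falls just short of 2-fold. The deacetylase Sirt2, which consumes NAD, was at 157 in the wild-type pool against 391 in the knockout pool, 2.49-fold higher. Nmrk1, the kinase that takes nicotinamide riboside into NAD, was at 42.0 and 73.4, 1.75-fold higher. The list thus held values on both sides, with a share of lower genes close to that of all genes.

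Nnmt draws its methyl groups from the methionine cycle. Of 14 kept genes of that cycle and of polyamine synthesis, 8 were lower and none by 2-fold, beside 55.5% and 9.14% of all kept genes. The median was -0.21. Ahcy, the hydrolase that clears the S-adenosylhomocysteine left by methylation, was at 193 and 123, a log2 difference of -0.66. Bhmt, which remethylates homocysteine with betaine, was at 45.5 in the wild-type pool against 153 in the knockout pool, 3.38-fold higher. The polyamine enzyme Odc1 was at 1352 and 2386, a log2 difference of 0.82, with 2.01 at the highest of its probe sets. These 2 genes stood on the opposite side from Nnmt.

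Hal was at 98.7 in the wild-type pool against 14.3, below the floor, in the knockout pool. Its log2 difference as measured was -2.79, and with the knockout value set to the floor Hal was at least 3.09-fold lower. The later enzymes of histidine breakdown were below the floor in both pools: urocanase Uroc1 was at 11.5 in each, Amdhd1 at 18.2 and 14.9, and Ftcd at 6.63 and 6.80. Hal was thus the one enzyme of the route from histidine to glutamate among these 4 that was above the floor, and only in the wild-type pool. Hnmt, which inactivates histamine by methylation, was at 87.0 and 42.4, 2.05-fold lower. Of the folate enzymes, Aldh1l1, which oxidises formyl-tetrahydrofolate, was at 223 and 94.7, 2.36-fold lower, and the mitochondrial serine hydroxymethyltransferase Shmt2 was at 91.2 and 164, higher by 0.85 on the log2 scale. The probe sets of Shmt2 disagreed, from 0.0075 to 0.85. Over the 7 other kept genes of histidine and one-carbon metabolism, 5 were lower (2 by at least 2-fold) and the median was -0.12. Over all kept genes 55.5% were lower and 9.14% at least 2-fold lower.

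Npr3 had 3 probe sets. The brightest was at 2972 in the wild-type pool against 725 in the knockout pool, 4.10-fold lower (log2 -2.03). The middle one was at 402 and 49.0, 8.22-fold lower (log2 -3.04), and the dimmest at 201 and 24.1, below the floor, at least 6.29-fold lower. All 3 pointed the same way, but their differences had an SD of 0.59, above the median of 0.25 for genes with several probe sets. The mean over the 3 was -2.71, so the brightest probe set, which represents the gene here, gave the smallest difference.

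The other parts of the natriuretic peptide system were mostly too dim to compare. The signalling receptor Npr1, a guanylyl cyclase, was at 8.95 and 11.0, and Npr2 at 31.8 and 20.1, both below the floor in each pool. The peptides Nppa, Nppb and Nppc and the protease Corin, which activates the atrial peptide, were below it too. Of 15 genes of the system with a probe set 10 were below the floor in both pools. The 4 kept besides Npr3 were all lower, beside 55.5% of all kept genes, with none lower by 2-fold and a median of -0.72. Mme, neprilysin, a protease that degrades natriuretic peptides, was at 576 and 394, and Gucy1b1, a subunit of the nitric oxide receptor cyclase, at 56.1 and 29.5, below the floor. Of 10 kept endothelial markers 9 were lower, beside the same 55.5%, with a median of -0.96. These markers summed to 1508 in the wild-type pool against 785 in the knockout pool. Their part in the Npr3 value was not tested.

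Slc7a10 was at 479 in the wild-type pool against 85.5 in the knockout pool, 17.9% of the wild-type value and 5.60-fold lower (log2 -2.48). It has a single probe set. Its partner Slc3a2, the heavy chain that brings several Slc7 transporters to the membrane, was at 1648 and 2005, a log2 difference of 0.28. Another light chain of Slc3a2, the large neutral amino acid transporter Slc7a5, was at 1132 and 2086, higher by 0.88. Slc7a9, a light chain best known from kidney and intestine, was at 78.1 and 25.6, below the floor, at least 2.44-fold lower. The family therefore held values on both sides, with Slc7a10 and Slc7a9 lower and Slc7a5 higher.

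Of 15 other kept genes of amino acid transport and serine synthesis, 9 were lower, 2 at least 2-fold, and 1 was at least 2-fold higher, with a median of -0.24. Over all kept genes 55.5% were lower, 9.14% at least 2-fold lower and 13.7% at least 2-fold higher. The glutamate transporter Slc1a3 was at 732 and 233, 3.14-fold lower, and its probe sets ranged from -2.01 to -1.50. The glutamate transporter Slc1a1 was at 328 in the wild-type pool against 819 in the knockout pool, 2.49-fold higher, with 0.80 at the lowest of its probe sets. The enzymes that make serine, a substrate of Slc7a10, differed less. Phgdh, the first of them, was at 2377 and 2064, Psat1 at 1720 and 1082, and Psph at 741 and 628, log2 differences of -0.20, -0.67 and -0.24.

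**Figure D2:**
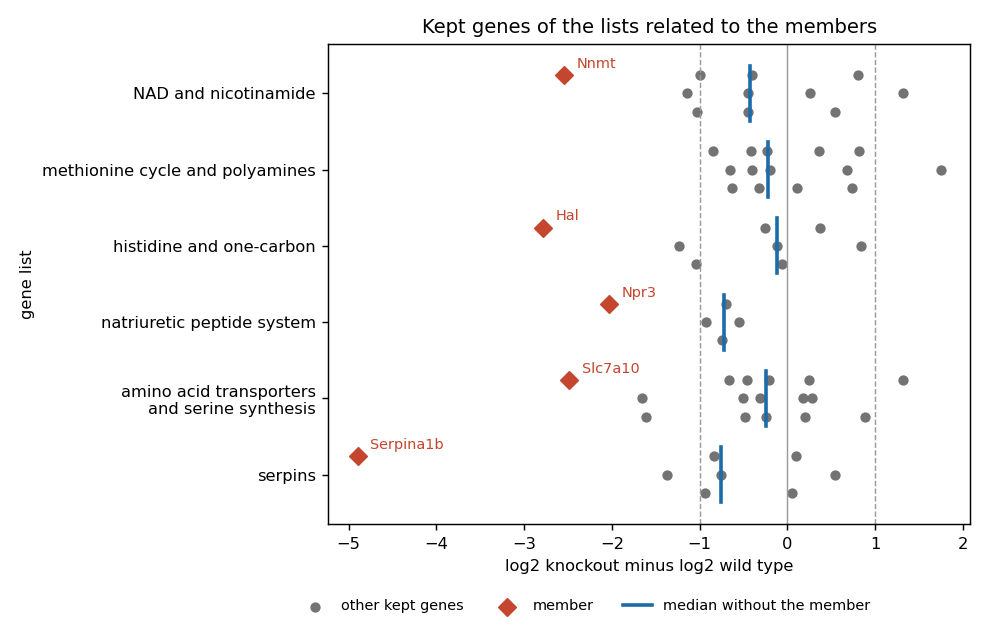
Log2 difference (knockout minus wild type) of each kept gene in 6 lists around the members; diamonds are members, dots the other genes, and the bar is the median without the member. Each of the 5 members shown lies to the left of every other kept gene in its list, a position fixed by how the members were chosen, while the bars lie between -0.75 and -0.12.

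Tmem45b was at 2212 in the wild-type pool against 229 in the knockout pool, 10.4% of the wild-type value and 9.65-fold lower (log2 -3.27) at its single probe set. Its relative Tmem45a was below the floor in both pools, at 15.0 and 11.0. Among the 5452 genes above the floor on both arrays, Tmem45b had the second lowest difference. Epithelial and mesothelial markers were measured because the fat pad borders the epididymis and a mesothelial surface. Of 11 kept, 7 were higher, and they summed to 7608 and 9489. All 7 higher genes were epithelial. The mesothelial markers Gpm6a and Upk3b were 2.81-fold and 2.51-fold lower. Msln, also mesothelial, was at least 1.16-fold lower, its knockout value being below the floor. Wt1, mesothelial too, lay at the floor, at 32.2 and 31.9, so no difference is read from it. The keratin Krt8 was 1.55-fold higher and the epithelial cadherin Cdh1 differed by 0.09 on the log2 scale. The part of these markers in the Tmem45b value was not tested.

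Serpina1b was at 419 in the wild-type pool against 14.0 in the knockout pool at one probe set, and at 383 and 12.4 at the other. Both knockout values were below the floor, so the gene was at least 13.1-fold lower at the first and at least 12.0-fold at the second. As measured, against knockout values under the floor, the log2 differences were -4.90 and -4.94. Both probe sets carry an ending that marks sequence shared with other transcripts, so which α1-antitrypsin gene they read is uncertain. The mouse genome holds several similar copies side by side. Over the best-aligned stretch, the promoter window of Serpina1b was 97.6% identical to that of Serpina1e (250 aligned positions). It was 92.9%, 92.0% and 93.1% identical to those of Serpina1a, Serpina1c and Serpina1d. These windows lie mostly before the transcript start, so they do not show which transcripts the probe sets read.

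The other probe sets of the cluster gave no signal above the floor. The one naming Serpina1d and Serpina1a together was at 9.12 and 9.83, the one naming Serpina1c at 5.23 and 5.15, and another that names Serpina1e, Serpina1c and Serpina1b at 4.72 and 4.03. The signal in the wild-type pool thus appeared at 2 of the 3 probe sets that name Serpina1b. Markers of hepatocytes, the main source of α1-antitrypsin, were nearly all dim: 14 of 16 were below the floor in both pools, among them albumin (Alb) at 13.5 and 12.5. The remaining 2, Fga at 32.6 and 34.1 and Cyp2e1 at 7292 and 6505, differed by 0.07 and -0.16 on the log2 scale.

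Of 7 other kept serpins, 4 were lower, beside 55.5% of all kept genes, with a median of -0.75. The median with Serpina1b included was -0.79, but -0.11 with a floor of log2 4 or with none, where more dim serpins enter. Serpina3n, an acute phase inhibitor, was at 1813 and 699, 2.59-fold lower, and it was the one other serpin lower by 2-fold or more. Serping1, the C1 inhibitor of complement, was at 2311 and 1203, and Serpinh1, the collagen chaperone, at 2581 and 1534. The log2 differences of the Serpinh1 probe sets ranged from -0.75 to -0.14. Of the macrophage markers, 15 of 15 kept were lower, beside the same 55.5%, with a median of -0.86. These markers summed to 6005 in the wild-type pool against 3582 in the knockout pool, and their part in the serpin values was not tested.

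**Figure D3:**
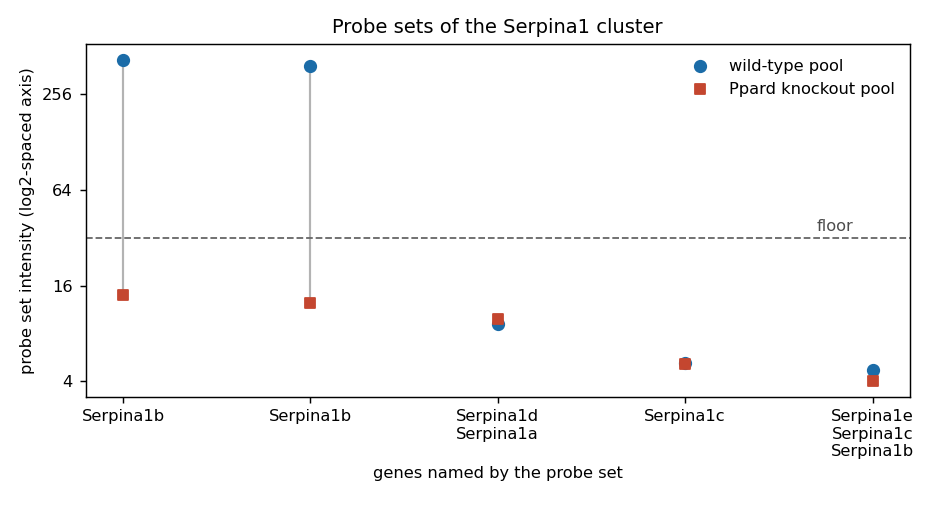
Intensity (log2-spaced axis) of the 5 probe sets that name a gene of the Serpina1 cluster, in the wild-type pool (circles) and the knockout pool (squares), with the floor of 32 dashed. The 2 probe sets that name Serpina1b alone were at 419 and 383 in the wild-type pool, and every other value lies under the floor.

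Of the 6 genes, 4 were above the floor on both arrays and could be ordered by their difference. Counted from the lowest among 5452 such genes, Tmem45b was number 2, Nnmt number 12, Slc7a10 number 15 and Npr3 number 43. The choice of members names no numerical limit. Beside Npr3, the least lowered member, lay Pik3r1 at -2.04 and Ehd2 at -2.03, neither of them a member. Nnmt and Slc7a10 differed from each other by less than the median SD of 0.25 between probe sets of 1 gene. Serpina1b has only a bound, at least 13.1-fold at its brighter probe set, which is already lower than Tmem45b and than any gene in that order. At its other probe set the bound was 12.0-fold, short of the 12.3-fold of Pnpla3, number 1 in that order and not a member. The bound of Hal does not fix its place.

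**Figure D4:**
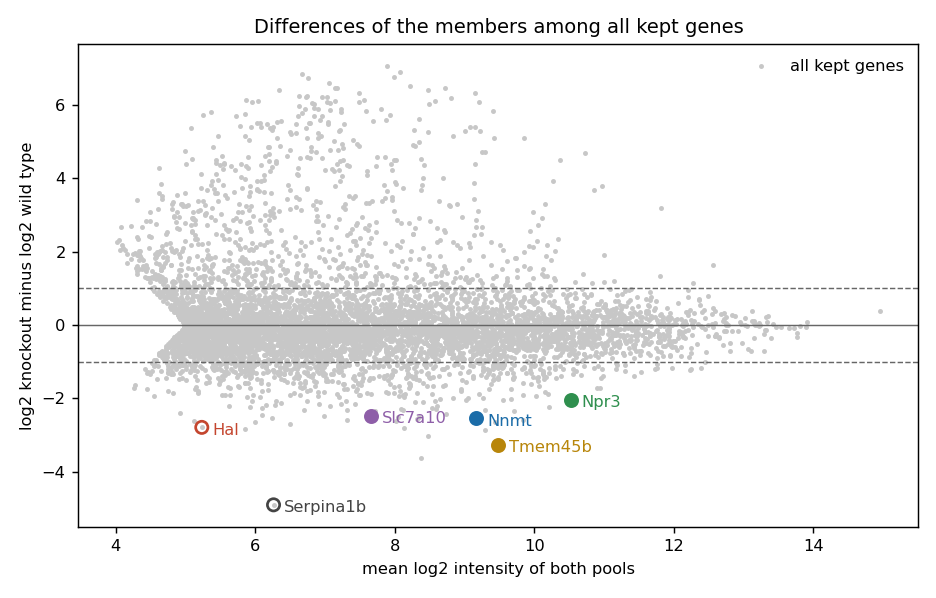
Log2 difference (knockout minus wild type) against the mean log2 intensity of both pools for all 6533 kept genes (grey) and the 6 members (coloured); open circles are members below the floor in the knockout pool, and dashed lines mark 2-fold. The members lie between -4.90 and -2.03, below the lower dashed line, and the larger differences among all genes are mostly above 0.

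Likeness to each member was measured as the distance between the pairs of log2 intensities on these 2 arrays, which describes 2 values per gene. For the distances as measured, other members and RIKEN, EST and predicted genes were passed over. Nearest to Nnmt were Emp1, an epithelial membrane protein (distance 0.23), the adipokine Lep (0.29) and the aggrecan-cleaving protease Adamts5 (0.38). Lep (0.38) and Adamts5 (0.45) were also nearest to Tmem45b, followed by Hsd11b1 (0.71), which regenerates active glucocorticoid. Lep was at 1698 in the wild-type pool against 233 in the knockout pool. The small heat shock protein Cryab, at 474 and 92.7, was nearest to Slc7a10 (0.12), followed by the ferroxidase Heph (0.41) and the thyrotropin receptor Tshr (0.42). Nearest to Npr3 were the matrix protein Prelp (0.47), the adipokine chemerin, Rarres2 (0.48), and Mgst3 (0.50). For Hal and Serpina1b the distance rests on knockout values below the floor. As measured, the macrophage receptor Cd163 (0.21), Sox7 (0.53) and Erdr1 (0.67) were nearest to Hal, and Alas2, the erythroid haem synthesis enzyme (1.57), Zeb2 (1.60) and L3hypdh (1.63) to Serpina1b. With dim values at the floor, a setting chosen after the data were seen, the nearest were Psmb9 (0.043), Parp9 (0.057) and Spsb1 (0.066) for Hal, and Zeb2 (0.88), Rbm28 (0.89) and Dbp (1.01) for Serpina1b. Which genes are most like these 2 members therefore depends on how dim values are treated.

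Genes that lie beside the members on their chromosomes were compared, since position played no part in the choice of members; they come from the same 2 arrays. The 5 nearest kept protein-coding genes on each side were taken from the gene order of GRCm38.p6. The median difference of the 10 neighbours was -0.31 for Nnmt, -0.21 for Hal, -0.03 for Npr3, -0.45 for Slc7a10, -0.11 for Tmem45b and 0.08 for Serpina1b, beside -0.08 for all kept genes. At least 2-fold lower as measured were 2 of 10 for Nnmt, Hal, Slc7a10 and Serpina1b, 1 for Tmem45b and 0 for Npr3, beside 9.14% of all kept genes. With dim values at the floor, Ikbip beside Hal was at 0.505 of its wild-type value. D430019H16Rik beside Serpina1b was then at 0.635, so both fell short of 2-fold. In that setting the share was 7.99% of all kept genes. At least 2-fold higher were 3 of 10 for Serpina1b, 2 for Npr3 and Tmem45b, 1 for Nnmt and 0 for Hal and Slc7a10, beside 13.7%. The neighbours of Slc7a10 included both Slc7a9 and the adipogenic factor Cebpa, at 2073 in the wild-type pool against 901 in the knockout pool, 2.30-fold lower. Beside Nnmt, Zbtb16, a zinc finger factor, was at 502 and 236, a log2 difference of -1.09. Beside Serpina1b lay Serpina3n on the lower side and Otub2, a deubiquitinase, at 13.6, below the floor, and 801 on the higher side.

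Markers of further cell types of the fat pad were measured on the same arrays. Of 10 kept stromal progenitor markers 7 were lower, beside 55.5% of all kept genes, with a median of -0.56. With dim values at the floor that median was -0.33. The stromal markers summed to 16312 in the wild-type pool against 11379 in the knockout pool. Of those above the floor on both arrays, the matrix proteoglycan Lum was lowest, 2.44-fold, and Dpp4 highest, with a log2 difference of 0.68. Ebf2, a factor of brown and beige precursors, was at least 1.07-fold lower, its knockout value being below the floor. Among the endothelial markers the range was from Sox18 at -1.59 to Cldn5 at 0.01, and among the macrophage markers Cd163, below the floor in the knockout pool, was at least 2.68-fold lower, Laptm5 2.65-fold lower and Ctss at -0.17. Adipocyte markers ranged from Lep at -2.87 to Aqp7, a glycerol channel, at 0.96, though the probe sets of Aqp7 disagreed, from -2.01 to 0.96. Germ cell markers ranged from Sycp3 at 2.25 to Akap4 at 6.32, and epididymis markers from Cuzd1 at -0.03, the sign of which turns when differences are centred on their median, to Defb1 at 1.57. The probe sets of Defb1 ranged from 0.31 to 1.57. Tmem45b was below the range of the listed adipocyte markers, and Nnmt, Slc7a10 and Npr3 were near its lower end. That place follows from how the members were chosen. Pparg, the nuclear receptor of adipocyte differentiation, was also near that end, at 1893 and 370 (log2 -2.35).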

How the data were processed

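Total RNA of epididymal fat was isolated with TRIzol, per the labels' protocols, and the pooled RNA of 5 mice per genotype was hybridised to 1 array. The deposited values are probe set intensities that the authors made with GCRMA 2.20, per the submitters' processing notes. That method estimates background from the bases of each probe, quantile-normalises and combines the probes of a set; dim probe sets are drawn to similar low values, which can enlarge folds near background. The values run from 1.91 to 36322 and are linear, so log2 was taken; the design had been written for log2 differences and nothing else was changed. No source used here says which arrays were normalised together. With no count behind an intensity, the depth is unknown.

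Probe sets were named from the array's annotation and updated by Entrez identifier to GRCm38.p6 symbols: 20393 named 1 gene (20364 matched by identifier, 29 kept the old name), 691 several and 1606 none. The last 2 kinds entered no gene comparison. A probe set was kept at log2 of at least 5 on at least 1 array, and the kept probe set with the highest mean represented a gene. A difference is the knockout log2 value minus the wild-type one, and folds against a value below the floor are lower bounds with that value set to the floor. No test was possible. The scripts (Python 3.11.15, pandas 2.3.3) were tested on simulated data.

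Members and gene lists were chosen with earlier results of these data known. Named by rule were the members, the 3 kept genes nearest to each, genes at least 2-fold different in the lists of related pathways and families, and the lowest and highest gene of each marker list. The search for the nearest genes passed over other members and RIKEN, EST and predicted genes. Nampt, Ahcy, Odc1, Uroc1, Amdhd1, Ftcd, Shmt2, Npr1, Npr2, Mme, Gucy1b1, Slc3a2, Slc7a5, Phgdh, Psat1, Psph, Serping1, Serpinh1, Tmem45a, Pparg, Adipoq, Alb, Nmrk1, Wt1, Upk3b, Msln, Cdh1, Lum, Laptm5, Pik3r1, Ehd2, Pnpla3, the genes nearest with dim values at the floor, the natriuretic peptides, Corin and the chromosome neighbours were named after their values were seen. Sequences are from RefSeq windows, and no protein sequence was used here.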

Additional observations from a re-analysis of the deposited data

How the results depend on the processing

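Over 8 alternative settings (floors of log2 4 and 6, no floor, the mean over probe sets, centring, removal of the intensity trend, no probe sets of shared sequence, dim values at the floor), the 6 genes gave 46 differences, and all 46 were lower by at least 2-fold, from -4.92 to -1.63. Changing or dropping the floor left the value of each of the 6 as it was, so many of the 46 repeat the main value. The genes were also picked for this difference, and nothing is read from that count. Nnmt and Serpina1b had no probe set left without those of shared sequence, so no value exists there. That setting dropped every probe set ending in _x_at, _s_at or _a_at. The probe set of Nnmt ends in _a_at, which marks transcripts of the same gene, and those of Serpina1b end in _x_at. A value was taken as moved when it shifted by more than 0.25, the median SD between probe sets of 1 gene. With dim values at the floor, Hal was at -1.63 and Serpina1b at -3.71. With the mean over kept probe sets, Npr3 was at -2.71 and the adipocyte median -1.06. With no floor, the medians with members included were -0.17 for the natriuretic peptide system, -0.029 for amino acid transport and serine synthesis, -1.86 for the Tmem45 pair and -0.11 for serpins, and the serpin median was -0.11 with a floor of log2 4; more dim genes enter at these settings. At 4-fold in place of 2-fold, 58 genes were lower and 480 higher, against 597 and 893. Of 174 alternative differences and medians, 165 stayed within 0.25 of the main value, and 1 turned sign, the hepatocyte median, from -0.048 to 0.036 when centred. Of 27 alternative counts, 25 were within 1.5 times the main count; without probe sets of shared sequence, the 4 members left were at least 2-fold lower, as were 486 of all genes. No paired analysis was possible because each genotype has 1 array and the labels carry no replicate numbers, and no array could be left out. Dim signal limits Hal, Serpina1b and the dimmest probe set of Npr3 to bounds.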
